A study of Mus musculus with 6 samples.

Results

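The members described here are 53 probes of a mouse Illumina expression array whose signal was higher after DNA transfection of wild-type cells and was higher by less than a set bound, or not at all, in Trex1-deficient cells. They were picked from 45281 probes by their measured values. The level of a probe is log2 of its intensity minus the median intensity of its array, with everything below 16 set to 16, so that the lowest possible level, the floor, is 4. A member had a detection fraction above 0.99 on the wild-type DNA-transfected array (the share of negative control beads dimmer than the probe), and was higher there by at least 1.5 log2 units than on the wild-type mock array. It was also required to be less than 0.5 higher on the Trex1-deficient DNA array than on its mock array, to be less than 0.5 higher on the Trex1-deficient mock than on the wild-type mock array, and to be less than 1 higher with DNA in cells that lack both Sting and Trex1. All differences named in these criteria are given below as descriptions, with no test, since they chose the members. The 53 probes are 0.366% of the 14488 probes detected on the wild-type DNA array and 6.53% of the 812 WT-inducible probes, those that meet the detection and wild-type criteria. Of the 53, 51 carry the name of 1 gene and stand for 46 of the 19057 genes named on the array, 5 of them with 2 member probes each, and 2 probes are unnamed here.

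The cells are labelled as mouse embryonic fibroblasts (MEFs), cultures grown from e13.5 embryos (embryonic day), of a mixed C57BL6/129Sv background in every group. STKO cells lack Sting and Trex1, TKO cells lack Trex1, and WT cells are wild type. ISD, short for interferon stimulatory DNA, is a synthetic duplex that cells read as foreign. Each genotype received it by transfection at 4 µg/ml for 6 h, or was mock-treated, which makes 6 groups of 1 array each: STKO ISD, STKO mock, TKO ISD, TKO mock, WT ISD and WT mock. With 1 array per group no difference has a replicate check, no p-value or standard error can be given, and genotype cannot be told apart from the culture, embryo or array. The groups follow the sample titles, and a separate genotype field of the labels contradicts the titles on Sting for 5 of the 6 arrays. The Sting1 probe had levels of 4.82, 5.06, 7.61, 6.82, 8.70 and 7.20 on the STKO ISD, STKO mock, TKO ISD, TKO mock, WT ISD and WT mock arrays, lowest on both STKO arrays, which goes with the titles. It was still detected on both STKO arrays, and where it lies relative to the altered part of the gene is not known. It is therefore only a limited check of the Sting labels. Trex1, the targeted gene, has 3 probes. One of them is a member, with levels of 8.20, 7.44, 9.59, 9.34, 12.62 and 9.98 in that order of arrays; a second had 6.20, 6.17, 8.61, 7.95, 12.13 and 9.26, and the other was detected on no array. Trex1 signal was thus lower on the knockout arrays than on the WT array of the same treatment, but was detected on all of them. Where these probes lie relative to the deleted part of the gene is not known, so they do not check the Trex1 labels.

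The nuclease TREX1 clears cytosolic DNA by digesting it from its ends. DNA that escapes it is sensed by the enzyme cGAS, whose product activates the adaptor STING, which leads to transcription of type I interferons and, through the interferon receptor, of interferon-stimulated genes. Trex1 is itself known as an interferon-stimulated gene, and cells without it are known to express interferon-stimulated genes without added DNA.

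The arrays detected 14488 to 16177 probes each, and the dimmest detected probe had a level of 4.43 to 4.97, depending on the array. Fibroblast markers were present, with 14 to 16 of 17 genes detected per array, among them Col1a1 at levels of 10.22 to 11.98 and Col1a2 at 8.75 to 10.84; Postn was at the floor on every array. Markers of macrophages and other myeloid cells were present as well, with 17 to 20 of 20 genes detected per array. Lyz2, a macrophage lysozyme, had levels of 15.06 to 15.26, Adgre1, which encodes the F4/80 antigen, 13.35 to 13.90, and Csf1r, the receptor for the macrophage growth factor, 12.63 to 13.43. The log2 of the summed marker signal lay between 17.61 and 17.87 for the myeloid list and between 14.48 and 15.10 for the fibroblast list. The labelled fibroblast identity therefore does not cover all the RNA on these arrays, and fewer cells of a type and less RNA per cell cannot be told apart in such bulk samples. The lymphocyte list had 1 or 2 of 13 genes detected, with Cd3d, Cd3e, Cd4, Cd8a and Ms4a1 at the floor throughout. Prf1 was detected on every array, at levels of 7.81 to 8.62, and Cd79b on all but WT ISD, at up to 6.12. The part of the myeloid RNA in the results below was not tested.

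The 5 member probes of interferon alpha genes had the largest WT differences of all members. Promoters of their genes are shown because the family splits into probes that passed the rule and probes that did not. The windows run from 250 bases before to 50 after the annotated start in RefSeq's GRCm38.p6 and are written 5′ to 3′ on the gene's strand. Capitals mark matches on the written strand to the core of the interferon-stimulated response element, GAAA repeated after any 2 bases, which interferon regulatory factors recognise. Ifna6 lies at chr4:88827026-88827325 (plus strand), Ifna9 at chr4:88592336-88592635 (minus strand) and Ifna14 at chr4:88571749-88572048 (minus strand); all 3 are genes of member probes. Ifna5, at chr4:88835275-88835574 (plus strand), is shown as a family member whose probes were higher with ISD on the TKO arrays too. Other probes of Ifna6 (TKO ISD minus TKO mock of 4.12 and 0.90) and of Ifna14 (1.43) were higher there as well. The split is thus between probes, and only Ifna9 of the 3 member genes has no such probe. Ifi202b, at chr1:173982795-173983094 (minus strand), is the member gene with the highest levels, and its window holds no match.
Ifna6: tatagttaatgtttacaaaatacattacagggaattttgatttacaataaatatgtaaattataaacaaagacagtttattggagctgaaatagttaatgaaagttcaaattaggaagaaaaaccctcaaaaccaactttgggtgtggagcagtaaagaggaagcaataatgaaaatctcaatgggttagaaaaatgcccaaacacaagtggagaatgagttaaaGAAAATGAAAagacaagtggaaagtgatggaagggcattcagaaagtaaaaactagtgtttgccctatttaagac
Ifna9: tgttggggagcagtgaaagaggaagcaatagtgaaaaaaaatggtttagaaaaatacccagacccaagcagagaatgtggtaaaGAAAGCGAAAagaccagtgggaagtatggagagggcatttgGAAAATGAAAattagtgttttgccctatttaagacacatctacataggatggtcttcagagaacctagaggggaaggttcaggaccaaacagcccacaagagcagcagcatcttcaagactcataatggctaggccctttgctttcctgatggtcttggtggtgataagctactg
Ifna14: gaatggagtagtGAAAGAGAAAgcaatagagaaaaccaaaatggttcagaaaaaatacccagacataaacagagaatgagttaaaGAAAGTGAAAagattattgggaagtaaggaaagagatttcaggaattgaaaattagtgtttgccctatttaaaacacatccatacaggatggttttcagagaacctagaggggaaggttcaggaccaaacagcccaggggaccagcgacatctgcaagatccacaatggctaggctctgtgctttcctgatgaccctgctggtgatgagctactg
Ifna5: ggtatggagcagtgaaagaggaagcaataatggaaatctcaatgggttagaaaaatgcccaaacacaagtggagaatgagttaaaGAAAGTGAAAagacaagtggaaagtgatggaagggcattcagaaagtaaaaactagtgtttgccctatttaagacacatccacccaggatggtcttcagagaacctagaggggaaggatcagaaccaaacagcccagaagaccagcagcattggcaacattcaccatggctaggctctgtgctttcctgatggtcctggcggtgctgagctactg
Ifi202b: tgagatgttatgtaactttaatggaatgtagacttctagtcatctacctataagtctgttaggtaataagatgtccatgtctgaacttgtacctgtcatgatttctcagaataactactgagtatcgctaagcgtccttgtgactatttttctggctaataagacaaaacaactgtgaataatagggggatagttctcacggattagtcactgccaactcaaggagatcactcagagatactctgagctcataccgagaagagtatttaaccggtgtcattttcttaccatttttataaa
Ifna6 and Ifna5 have 1 match each, and Ifna9 and Ifna14 have 2. The match of Ifna6 starts 25 bases before the annotated start, and that of Ifna5 starts 165 bases before it. The bases on both sides of the match are nearly the same in Ifna6 and Ifna5. The unequal distances thus follow from where each start is annotated, not from a different place of the motif in the shared sequence. Over all members, 34 genes have a window in the table, and 6 of them (17.6%) hold the motif on either strand: Ifna6, Ifna9, Ifna14, Ifi214, Jaml and Bco2. Among the genes of the other WT-inducible probes 68 of 370 (18.4%) hold it, and among all genes 1079 of 27025 (3.99%). The cAMP response element TGACGTCA was found in 4 member genes (11.8%), Has1, Hs3st3a1, Maff and Noc4l, against 2.70% of the genes of the other WT-inducible probes and 2.03% of all genes. The AP-1 motif TGANTCA was found in 1 member gene, Adora3 (2.94%), against 12.97% and 8.97% in those same sets. An NF-kB motif was found in 7 member genes (20.6%), against 14.9% and 9.55%. The TATA box was found in 17.6% of the member genes, against 14.3% and 15.7%, and the E-box CACGTG in 5.88%, against 9.19% and 8.09%. The SRF CArG box was found in no member gene. In all, 7 motifs were searched, and counts this small rank none above another. These are matches of letters in short windows, not sites.

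Most members were dim probes seen on a single array. On the WT ISD array the median level of the 53 members was 6.13, against 9.06 for the 759 other WT-inducible probes, and 38 of the 53 (71.7%) lay under 7, against 174 of 759 (22.9%). Of the 53, 33 were detected on the WT ISD array alone and 18 were at the floor on all 5 other arrays. Only 8 were detected on all 6 arrays, and 43 were detected on neither TKO array, so that for these the TKO difference is a difference between values at or near the floor. Members made up 23 of the 67 WT-inducible probes with a WT ISD level under 6 (34.3%), 15 of 145 between 6 and 7 (10.3%) and 6 of 304 at 10 or more (1.97%).

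**Figure D1:**
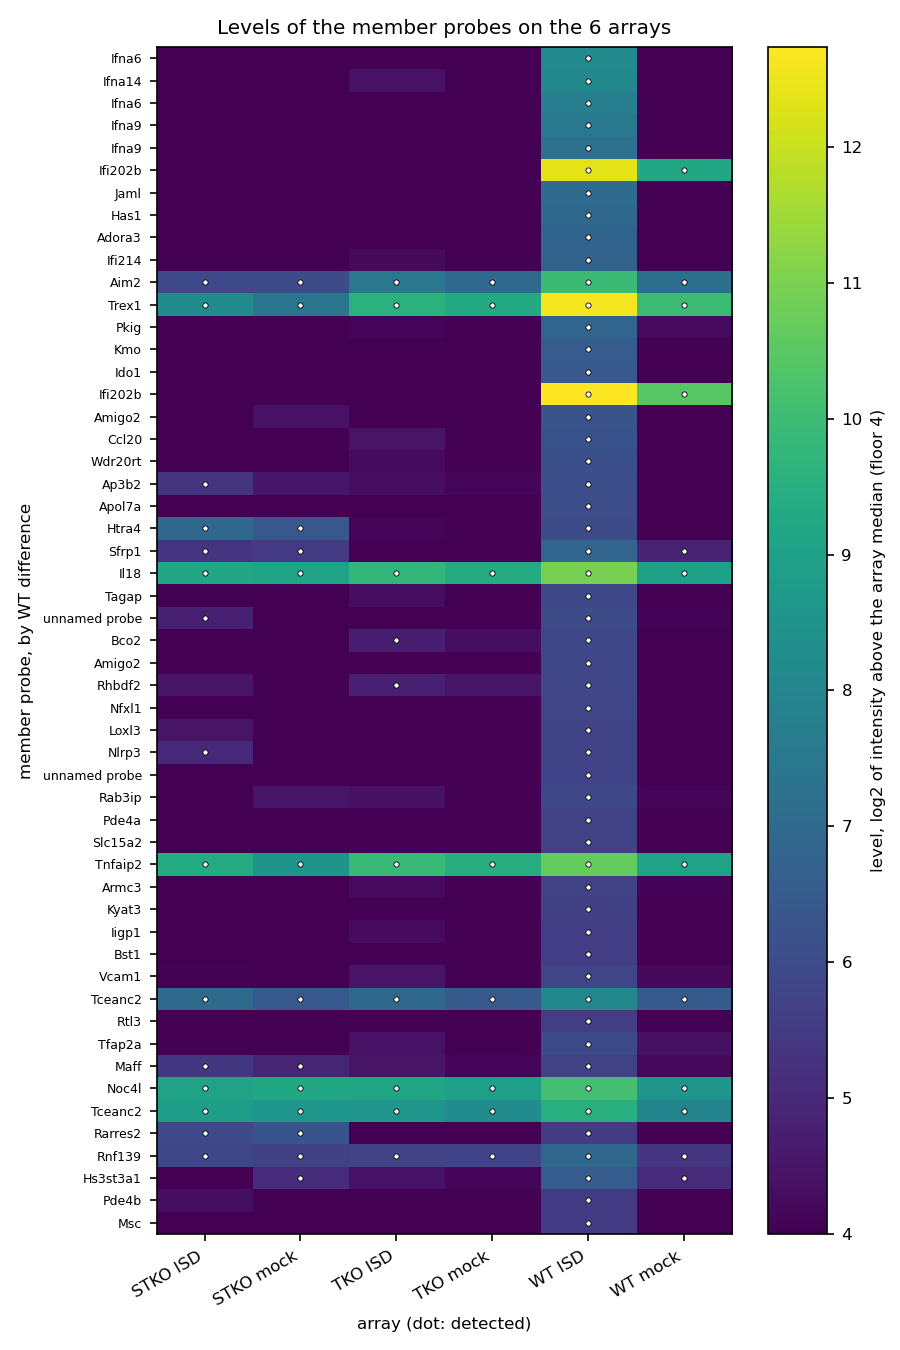
Level of each of the 53 member probes (rows, ordered by the WT ISD minus WT mock difference) on the 6 arrays (columns), as log2 of intensity above the array median with a floor of 4; a dot marks a probe detected on that array. The WT ISD column is filled for all 53, and 33 rows have no dot elsewhere.

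The TKO ISD minus TKO mock difference was exactly 0 in 27 members, because both arrays were at the floor, and between 0 and 0.48 in the other 26; no member was lower with ISD on this scale. With a floor of 8, 11 members had a TKO difference of 1 or more, up to 1.46; with the background set at the 5th percentile 7 did, and under neqc, the normalization of limma, 2 did. The median WT ISD minus WT mock difference was 1.89 log2 units over the members, with a range of 1.501 to 4.19, against 2.45 for the other WT-inducible probes and −0.26 for the 17808 probes detected on any array. Being higher by 1.5 or more was met by 5.6% of the probes detected on WT ISD. Of the 812 WT-inducible probes, 22% met the TKO criterion, 34.2% the criterion on the mock arrays and 90.4% the STKO criterion. The median over all detected probes was −0.29 in TKO and 0.09 in STKO; the members at exactly 0 are values at the floor and have no measured position against it. Values under the detection limit more often leaned upward with ISD. After subtracting each array's median, TKO ISD exceeded TKO mock in 38 of the 43 members detected on neither TKO array (88.4%), against 55% of the 29187 probes that were detected on neither TKO array and were not WT-inducible.

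**Figure D2:**
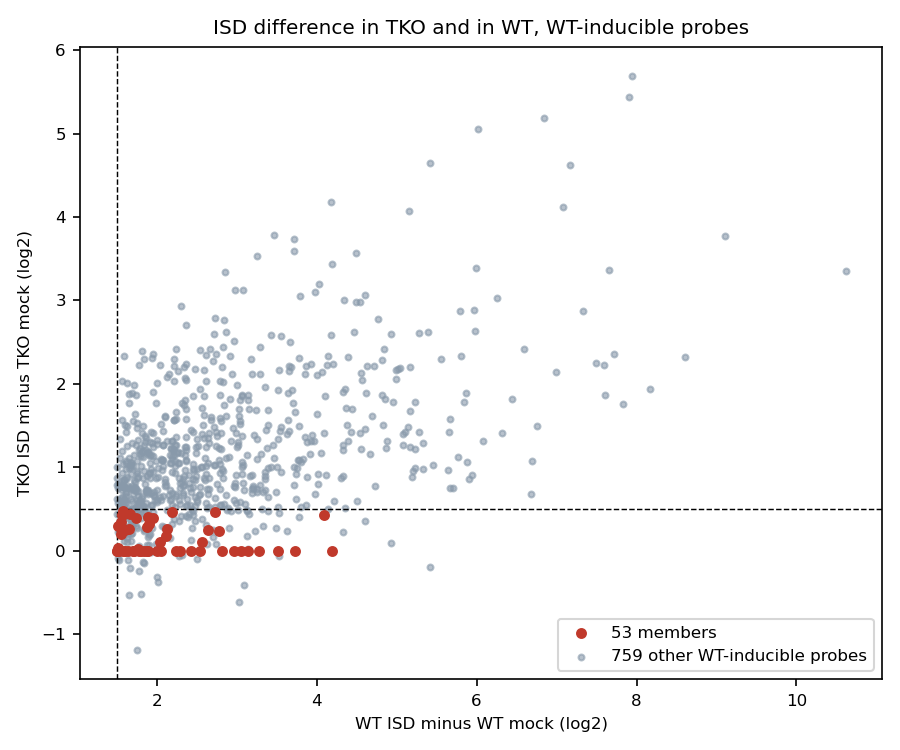
TKO ISD minus TKO mock (vertical axis, log2) against WT ISD minus WT mock (horizontal axis, log2) for the 812 WT-inducible probes, with the 53 members in red and the 759 others in grey. The dashed lines mark the thresholds of 0.5 and 1.5; members lie between 0 and 0.48 on the vertical axis, where 27 of them are at 0.

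The thresholds cut through continuous values. At the WT threshold Msc had 1.501 and Pde4b 1.51 inside, and Ms4a6b 1.499 and Tslp 1.48 outside. At the TKO threshold Tceanc2 (0.48) and Aim2 (0.46) were inside, and Bcl9 and Dram1 (both 0.51) outside. At the mock threshold Rhbdf2 (0.48) and Tnfaip2 (0.42) were inside, and Ggct (0.54) and Dusp28 (0.55) outside. At the STKO threshold Nlrp3 (0.98) and Tnfaip2 (0.86) were inside, and Gpr84 (1.26) was the 1 probe outside.

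The interferon alpha genes, clustered on chromosome 4, encode secreted antiviral ligands of the type I interferon receptor. On the WT ISD array the 2 member probes of Ifna6 had levels of 8.19 and 7.73, that of Ifna14 had 8.09, and the 2 of Ifna9 had 7.51 and 7.27. On the 5 other arrays all of them were at the floor, except that Ifna14 had 4.43 on TKO ISD, where it was not detected. Taking the dimmest detected probe of the dim array as the bound, their signal was at least 7.19-fold to at least 13.6-fold higher on WT ISD than on WT mock. By the same bound, WT ISD was at least 6.61-fold to at least 12.5-fold above TKO ISD.

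The family has 26 probes of 14 genes on the array, and 20 of these, of 10 genes, were WT-inducible. Another 5, of Ifna7, Ifna11, Ifna12, Ifna13 and Ifna16, were at the floor on all 6 arrays. The 15 WT-inducible ones that were not members, which the rule leaves out mainly through their TKO differences, were all detected on TKO ISD, with TKO differences of 0.76 to 5.69 (median 3.03), and 1 of the Ifna5 probes had levels of 4, 4, 9.43, 4, 11.90 and 4 on the STKO ISD, STKO mock, TKO ISD, TKO mock, WT ISD and WT mock arrays. Member genes were among them: another Ifna6 probe had 8.12 on TKO ISD and 11.09 on WT ISD, with the floor on the 4 other arrays, and another Ifna14 probe had 5.43 and 9.10. On TKO ISD these 15 were 0.96 to 4.24 lower than on WT ISD (median −2.43). The member probes spanned 7.27 to 8.19 on WT ISD, and the others 7.39 to 11.94. Interferon alpha genes are closely similar in sequence, so probes of several genes may bind the same transcripts. For comparison, Ifnb1, the interferon beta gene, had 7.10, 4, 14.52, 11.17, 14.61 and 4 in the same order of arrays.

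**Figure D3:**
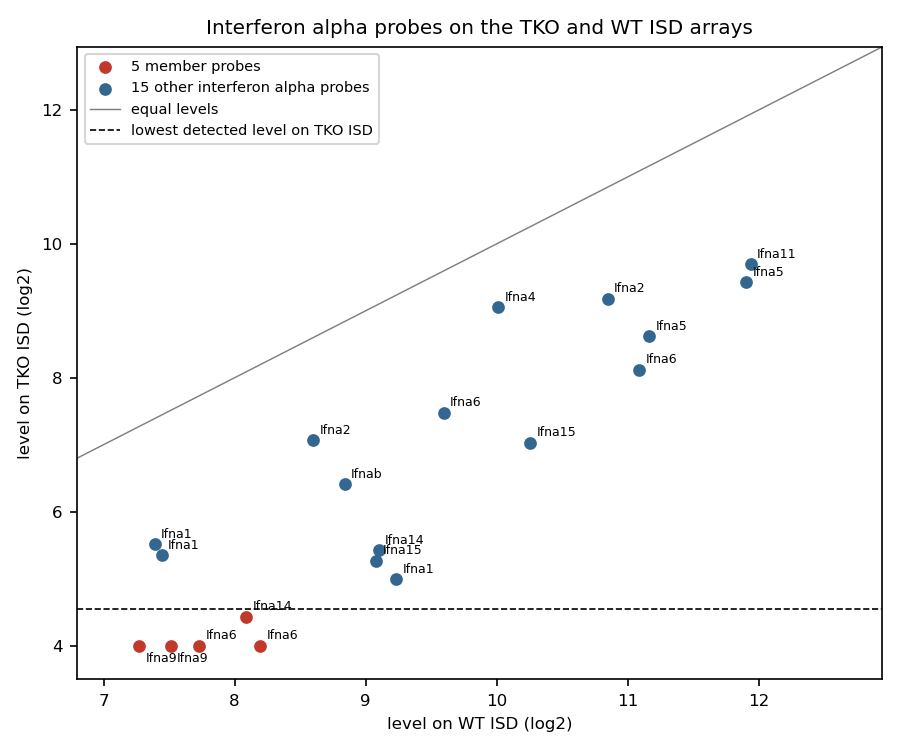
Level on TKO ISD (vertical axis, log2) against level on WT ISD (horizontal axis, log2) for the 20 WT-inducible interferon alpha probes, 5 members in red and 15 others in blue. All 20 lie below the line of equal levels, and the 5 members lie under the dashed line, the level of the dimmest probe detected on TKO ISD (4.55), at WT ISD levels of 7.27 to 8.19.

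A group of members belongs to the PYHIN family on chromosome 1, interferon-inducible proteins that include the cytosolic DNA sensor AIM2. Ifi202b, which encodes p202, a binding partner of DNA known to oppose AIM2 in mice, had levels of 12.37 and 12.73 on WT ISD and 9.23 and 10.45 on WT mock with its 2 member probes, and was at the floor on all 4 knockout arrays. It is thus high in WT cells with or without ISD and not detected in the others. WT ISD exceeded TKO ISD at least 226-fold and at least 291-fold by these probes, the widest gaps among the members. The remaining Ifi202b probe was detected on no array. Ifi202b is known to be expressed in some inbred mouse strains and silent in others. The labels give all groups the same mixed strain background, so strain-derived sequence around this gene and the Trex1 genotype cannot be told apart.

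Other PYHIN genes near Ifi202b differed between the genotypes in either direction. Aim2 had member probe levels of 5.93, 6.03, 7.47, 7.001, 9.96 and 7.23 on the STKO ISD, STKO mock, TKO ISD, TKO mock, WT ISD and WT mock arrays. Its other probe had 8.38, 7.76, 9.92, 9.05, 10.01 and 7.73, a TKO difference of 0.87, and was nearly as bright on TKO ISD as on WT ISD. The Ifi214 member probe was detected on WT ISD alone, at 6.78, whereas another of its probes had 4, 4, 11.02, 9.61, 10.31 and 4 and was brighter on TKO ISD than on WT ISD. Ifi205, Ifi211 and Ifi213 were brighter on the TKO arrays than on the WT arrays with every probe of theirs; Ifi211 had 10.19 on TKO ISD and 9.04 on TKO mock, and was at the floor on both WT arrays. In the annotation of the same RefSeq assembly 1 protein-coding gene lies between Aim2 and Ifi214, and 8 lie between Ifi214 and Ifi202b. Fcer1g, a myeloid marker that is also on chromosome 1, ran opposite to Ifi202b, with 14.92 to 15.09 on the 4 knockout arrays and the floor on both WT arrays.

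The members detected on all 6 arrays are those whose TKO differences were measured rather than set by the floor. They are Aim2, Trex1, Il18, Tnfaip2, 2 probes of Tceanc2, Noc4l and Rnf139. Il18, the precursor of the inflammasome-processed cytokine interleukin 18, had levels of 9.21, 9.05, 9.77, 9.38, 10.94 and 8.98 on the STKO ISD, STKO mock, TKO ISD, TKO mock, WT ISD and WT mock arrays. Tnfaip2, a gene first described as induced by tumour necrosis factor, had 9.39, 8.53, 9.88, 9.44, 10.68 and 9.02. For both genes WT ISD was the highest array and TKO ISD the next. Another WT-inducible probe of each gene had a TKO difference above 0.5. It was 1.12 for a dimmer Il18 probe, at the floor on TKO mock, and 0.66 for a brighter Tnfaip2 probe.

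Noc4l, a nucleolar protein of small ribosomal subunit assembly, had 9.05, 9.19, 9.14, 8.95, 10.11 and 8.56. Rnf139, a ubiquitin ligase of the endoplasmic reticulum, had 5.89, 5.65, 5.80, 5.76, 6.91 and 5.39. The brighter Tceanc2 probe had 8.85, 8.58, 8.56, 8.22, 9.48 and 7.92, and the dimmer one 7.02, 6.41, 6.92, 6.44, 8.06 and 6.49. In each of these WT ISD was again the brightest of the 6 arrays, and WT mock was the dimmest in all but the dimmer Tceanc2 probe. Of the other Tceanc2 probes, a WT-inducible one had a TKO difference of 0.73 and one that was not WT-inducible had −0.64.

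Over these 8 probes the TKO difference was 0.04 to 0.48 and the WT difference 1.52 to 2.73. All 8 were above the median of all probes in TKO, by 0.33 (Rnf139) to 0.77 (the dimmer Tceanc2 probe), against 1.78 to 2.99 in WT. Trex1 lay 0.54 above that median in TKO and 2.90 above it in WT. Under the neqc normalization of limma, which also quantile-normalizes the arrays, the TKO differences of Aim2, Il18, Tnfaip2 and both Tceanc2 probes were 0.58 to 0.67, above the threshold of 0.5. On the scale of the rule, the WT difference exceeded the TKO difference by 1.10 (the dimmer Tceanc2 probe) to 2.39 (Trex1).

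**Figure D4:**
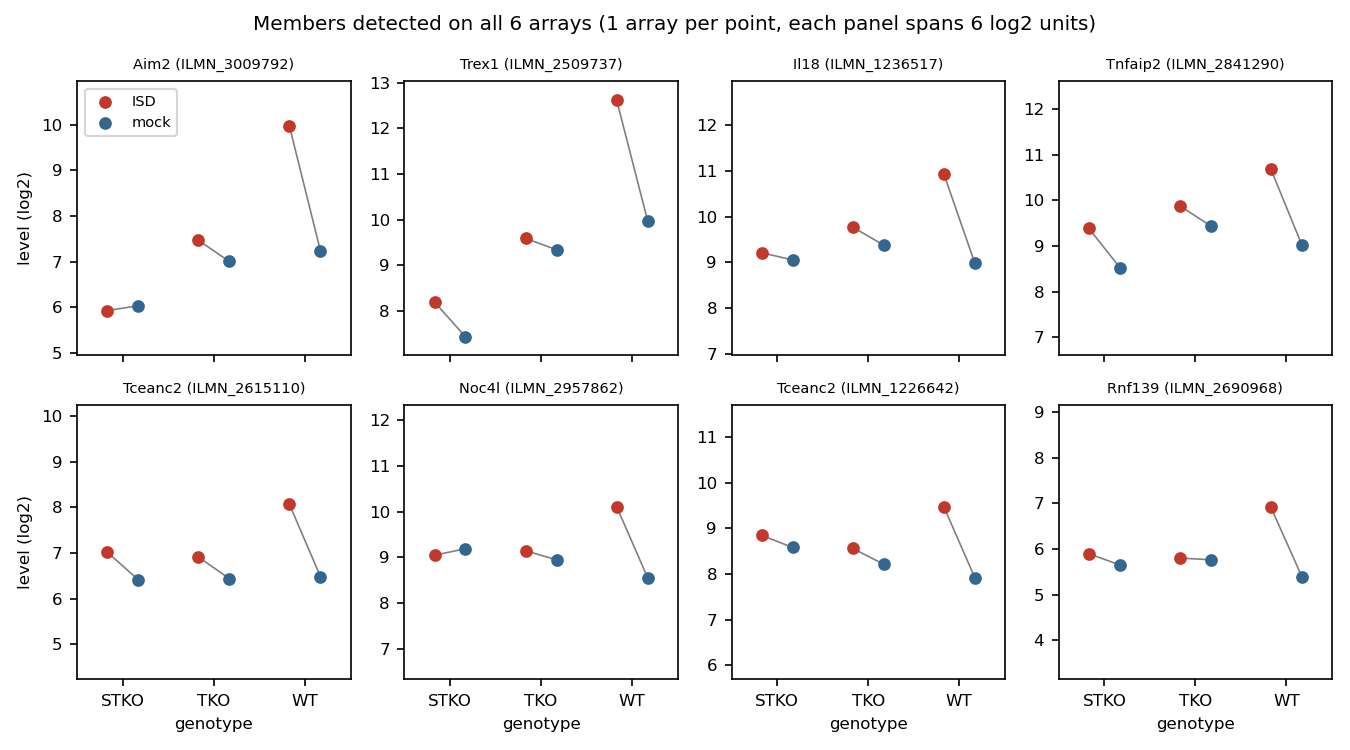
Levels (log2) of the 8 member probes detected on all 6 arrays, 1 panel per probe, with ISD in red to the left of mock in blue for STKO, TKO and WT; each point is 1 array and each panel spans 6 log2 units. WT ISD is the highest point of every panel, and TKO differences of 0.04 to 0.48 stand against WT differences of 1.52 to 2.73.

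The array has 56 further probes for 32 of the member genes; 31 of them were not detected on WT ISD, and 14 member genes have no other probe. Of the 25 that were detected, 15 probes of 13 genes were WT-inducible, with TKO differences of 0.16 to 4.12 (median 0.90) and WT differences of 1.57 to 7.09. The TKO difference was 0.5 or more in 14 of these 15, and 1 or more in 6. A probe that failed the rule after passing its WT part had to exceed another of its bounds, so these counts follow largely from the choice of members and are given as a description. The exception was Nfxl1, with a TKO difference of 0.16. Vcam1, the adhesion molecule that binds leukocyte integrins, had 5.81 on WT ISD and 4.22 on WT mock with its member probe, while another probe had levels of 10.12, 9.20, 12.45, 10.13, 12.88 and 9.11 on the STKO ISD, STKO mock, TKO ISD, TKO mock, WT ISD and WT mock arrays. By the brighter probe Vcam1 was higher with ISD by 2.32 in TKO and by 3.77 in WT. Tagap, a GTPase-activating protein of activated lymphocytes, had other probes with TKO differences of 1.52 and 1.00. The member probes of Vcam1 and Tagap had TKO differences of 0.45 and 0.32. The 10 other probes that were detected but not WT-inducible had TKO differences from −0.64 (Tceanc2) to 1.71 (Vcam1). Those of Kyat3 (0.95), Tnfaip2 (0.72) and Noc4l (0.51) also exceeded 0.5. Below 0.5 lay probes of Pde4b (0.44), Nlrp3 (0, at the floor), Pkig (−0.09 and −0.11) and Rarres2 (−0.44).

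**Figure D5:**
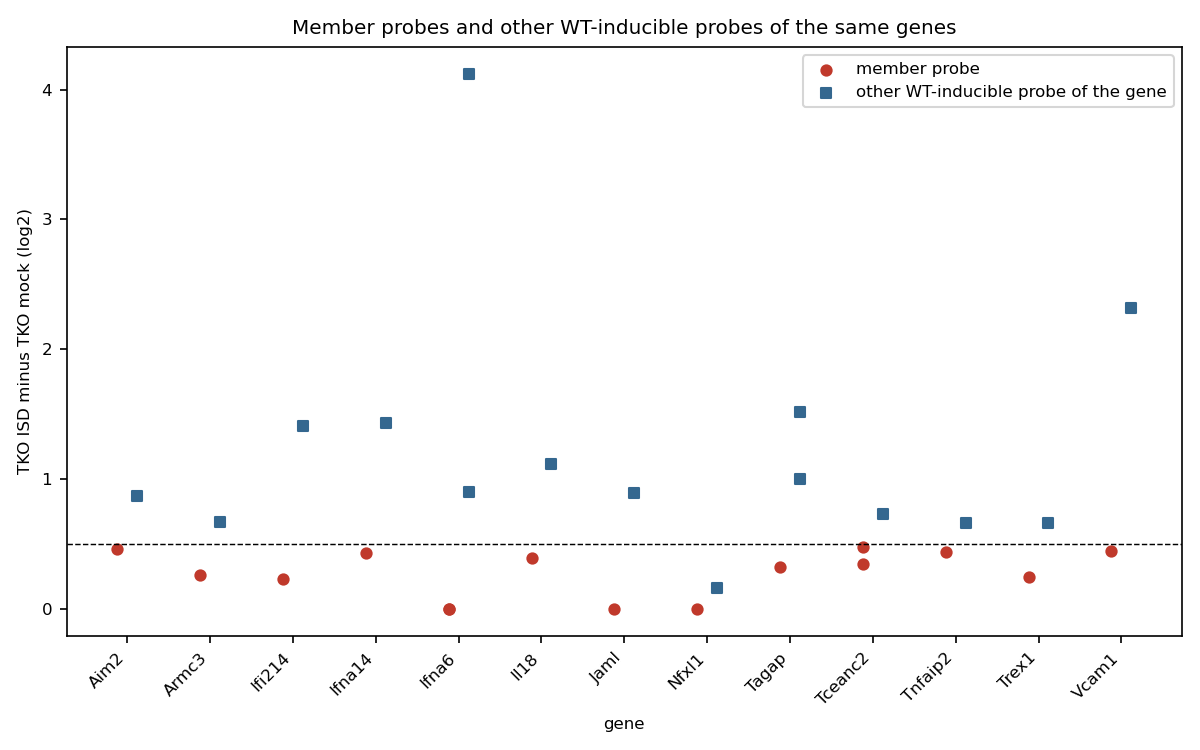
TKO ISD minus TKO mock (log2) for member probes (red circles) and for other WT-inducible probes (blue squares) of the same 13 genes. The dashed line is the TKO threshold of 0.5; 14 of the 15 other probes lie above it, and the 2 member probes of Ifna6 coincide at 0.

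Apart from Il18 and Tnfaip2, described above, further members with roles in inflammation outside the interferon and PYHIN families are named here. The member probes named in this paragraph had levels of 5.60 to 7.05 on WT ISD. Ccl20, a chemokine that attracts cells through CCR6, had 4.46 on TKO ISD and 6.19 on WT ISD, and the floor on the 4 other arrays. Nlrp3, the sensor of an inflammasome, had 4.98 on STKO ISD, where it was detected, and 5.78 on WT ISD, and the floor elsewhere. Iigp1, an interferon-inducible GTPase that acts against intracellular parasites, had 4.25 on TKO ISD and 5.60 on WT ISD. Maff, a small Maf transcription factor, was the only member of the immediate early list, with 5.40, 4.91, 4.45, 4.17, 5.73 and 4.18 on the STKO ISD, STKO mock, TKO ISD, TKO mock, WT ISD and WT mock arrays; WT ISD was only slightly brighter than STKO ISD. Jaml, a junctional adhesion molecule of leukocytes, had 7.05 on WT ISD alone with its member probe. Another Jaml probe had 4.89 on TKO ISD, where it was detected, 6.49 on WT ISD and the floor elsewhere. Rhbdf2, which encodes a partner of the enzyme that releases tumour necrosis factor, had 4.76 on TKO ISD, 4.48 on TKO mock and 5.87 on WT ISD. Apol7a, of the apolipoprotein L family, had 6.06 on WT ISD alone.

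The members were counted in gene lists of pathways. Of the type I interferon list 10 genes had a WT-inducible probe and 3 are members. Of the list of interferon-stimulated genes, 59 genes had a WT-inducible probe and 1, Iigp1, is a member. That list does not hold the members Trex1, Aim2, Ifi202b and Ifi214, described above as interferon-stimulated or of an interferon-inducible family. The count of 1 is therefore not a count of all interferon-inducible members. Of the DNA sensing list 10 were WT-inducible and 2 are members (Aim2 and Trex1), of the chemokines 11 and 1, of the cytokines and growth factors 13 and 1 (Il18), and of the NF-kB targets 11 and 2 (Tnfaip2 and Vcam1). Of the pattern receptors 7 were WT-inducible and 2 are members (Aim2 and Nlrp3), of the immediate early genes 5 and 1 (Maff), of the Wnt and Notch list 2 and 1 (Sfrp1), and of the list of NAD, tryptophan, arginine and nucleotide metabolism 11 and 1 (Ido1). The last of these lists does not hold the members Kmo and Kyat3, described below. No member came from the 12 WT-inducible genes of the IRF and STAT list or the 9 of antigen presentation. Over all genes, 508 had a WT-inducible probe and 46 are members, and counts this small rank no list above another.

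Some members share a biochemical role, in groups that were put together after the members were seen and so carry no weight as evidence. Ido1, Kmo and Kyat3, which act in succession or in parallel in the breakdown of tryptophan through kynurenine, had 6.42, 6.54 and 5.64 on WT ISD and the floor on the 5 other arrays. Of the 12 genes of that pathway on the array 4 were WT-inducible, and the fourth, Kynu, had 5.61 on TKO ISD, 6.68 on WT ISD and the floor elsewhere. A second probe of Kyat3 had 5.96 on TKO ISD and 5.00 on TKO mock, against 6.20 on WT ISD and 5.57 on WT mock. Adora3, a receptor for adenosine that lowers cAMP, had 6.82 on WT ISD alone, and Pde4a and Pde4b, phosphodiesterases that degrade cAMP, had 5.71 and 5.51 there. All other probes of Adora3 and Pde4a were at the floor on every array. A brighter Pde4b probe had 6.99, 5.94, 6.56, 6.12, 8.12 and 6.78 on the STKO ISD, STKO mock, TKO ISD, TKO mock, WT ISD and WT mock arrays, highest on WT ISD. Pkig, an inhibitor of the cAMP-dependent kinase, had 6.84 on WT ISD and 4.27 on WT mock with its member probe, whereas a brighter probe of it had 9.90 and 9.66. Of the 13 genes of this cAMP group on the array, 7 were detected on WT ISD, and the 4 named here were WT-inducible. The remaining detected genes had WT differences of −0.46 (Pde4d), −0.25 (Pkia), and −0.40 and 0.35 (Pkib). Has1, a hyaluronan synthase, had 6.96 on WT ISD alone, while Has2, which makes the same polymer, had 6.73, 6.44, 9.65, 6.32, 10.60 and 7.75 on the STKO ISD, STKO mock, TKO ISD, TKO mock, WT ISD and WT mock arrays and was higher with ISD in TKO by 3.34.

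A few members were present on the STKO arrays but not on the TKO arrays. Detection on an STKO array with none on TKO applied to 8 members (15.1%), against 1.59% of all probes detected on WT ISD; the rule's TKO criteria raise the share among members. Htra4, a secreted serine protease, had 6.93, 6.36, 4.10, 4, 6.04 and 4 on the STKO ISD, STKO mock, TKO ISD, TKO mock, WT ISD and WT mock arrays. Rarres2, the precursor of the chemoattractant chemerin, had 5.94, 6.28, 4, 4, 5.53 and 4, and Sfrp1, a secreted Wnt antagonist, had 5.30, 5.47, 4, 4, 6.86 and 4.85. These 3 were the members higher on STKO mock than on TKO mock by 1 or more, by 2.36, 2.28 and 1.47, against 6.41% of all detected probes. Of the other Rarres2 probes, 1 had 6.63 on STKO mock and 7.21 on TKO mock, and 1 was detected on STKO ISD alone, at 5.32, with 4.47 on STKO mock and the floor on both TKO arrays. In the other direction, STKO mock was lower by 1 or more for 1 member, Trex1 (a difference of −1.91), where the background is 5.06%. Set against WT mock, STKO mock was higher by 1 or more for 2 members, Htra4 and Rarres2 (2.96% of all detected probes), and lower by 1 or more for 4, the Ifi202b, Trex1 and Aim2 probes (4%). In the members other than Htra4, Rarres2, Sfrp1 and Trex1, the difference between STKO mock and TKO mock, which the rule did not name, was under 1 in size. Over all 53 its median was 0, and 35 members were at exactly 0. The floor sets this median, since 37 members were at the floor on STKO mock and 40 on TKO mock. It is not a measured agreement of the 2 arrays.

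Between the ISD arrays, 50 of the 53 members were lower on TKO ISD than on WT ISD by 1 or more, against 8.49% of all detected probes and 15.2% of the other WT-inducible probes. The median difference was −1.79 for the members and −0.34 for the other WT-inducible probes. The rule fixes much of this, since it asks for a high WT ISD level and a low TKO level. On the mock arrays 5 members were lower on TKO than on WT by 0.5 or more, against 21.5% of all detected probes. Only 12 of the 53 were detected on WT mock, and 34 were at the floor there and could not be lower on TKO. The count of 5 is therefore not comparable with that share. The largest such differences were those of the 2 Ifi202b probes, −5.23 and −6.45.

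The remaining named members were each brightest on WT ISD, and most were seen on that array alone. Amigo2, a cell adhesion protein, had 6.24 and 5.87 on WT ISD with its 2 probes. Loxl3, a lysyl oxidase that cross-links collagen, had 5.81, Bst1, an ectoenzyme that makes cyclic ADP-ribose, had 5.60, and Slc15a2, a peptide transporter, had 5.70. The transcription factors Tfap2a and Msc had 5.94 and 5.50. Bco2, a mitochondrial carotenoid oxygenase and the direct neighbour of Il18 in the annotation, had 4.72 on TKO ISD, 4.32 on TKO mock and 5.89 on WT ISD. Hs3st3a1, an enzyme of heparan sulfate synthesis, had 6.55 on WT ISD and 5.04 on WT mock, and the 2 unnamed probes had 5.99 and 5.77 on WT ISD. Wdr20rt, Ap3b2, Rab3ip, Armc3, Rtl3 and Nfxl1 lay between 5.58 and 6.13 on WT ISD.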

How the data were processed

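RNA of 6 cultures was measured on 1 Illumina array each. The deposited table holds intensity values for 45281 probes, called non-normalized, and the lowest values (44.8 to 51.3) show that background was not subtracted. Beside each value the deposited table holds a detection fraction; its heading calls it a p-value, but it increases with the signal, and it was taken as the proportion of negative controls dimmer than the probe. A second table, the series' value table, holds log2 values that the authors deposited centred on each probe's median over the 6 arrays (column medians −0.01 to 0); its differences follow those of the log2 intensities (slopes 0.99, 0.96 and 0.98 for STKO, TKO and WT), and the sources used here do not state how it was normalized. The number of arrays limits the precision.

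From the intensities, levels were computed with pandas 2.3.3 and numpy 2.4.6 under Python 3.11.15. A fold against a probe that was not detected is a lower bound, set by the dimmest probe detected on that array. Gene names came from the platform annotation: 34885 probes have 1 gene, 18 have several and 10378 are unnamed here, and 34807 of the first matched RefSeq. Promoters are RefSeq's. Member probes and gene lists were chosen with earlier results of these data known. Named were the 25 largest WT differences, the 10 brightest others, the 8 lowest TKO differences (27 tie at 0, so these 8 are arbitrary), the 5 highest STKO mock minus TKO mock differences, members of lists, genes with 2 member probes and the 2 probes on either side of each threshold; Has2, Kynu, Fcer1g, the other PYHIN genes and the remaining members were added after their values were seen. Alternatives were neqc of limma 3.58.1 (R 4.3.3, offset 16), other backgrounds, floors and thresholds, and the value table, to whose centred values no floor applies. The rule was tested on simulated data in which only probes already detected on WT mock were raised. That test does not cover members that were not detected on WT mock, which are most of them.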

Additional observations from a re-analysis of the deposited data

Results flagged for a closer look

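Hs3st3a1, an enzyme of heparan sulfate synthesis, had differences of opposite sign in STKO and WT cells, the first of which rests on an array where it was not detected. Its level was at the floor of 4 on STKO ISD and 5.10 on STKO mock, so the difference of −1.10 has a size set by the floor. In TKO it was detected on neither array, at 4.42 on ISD and 4.12 on mock. In WT it had 6.55 on ISD and 5.04 on mock, a difference of 1.51. With 1 array per group the difference between the genotypes was not tested.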

How the results depend on the processing

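The 53 members depend strongly on how dim probes are treated. A floor of 50 gave 26 probes (14 of the 53 among them), background at the 5th percentile 23 (13), neqc 20 (13); quantile normalization without background subtraction gave 12 (11), as did the value table. Also asking for detection on WT mock left 12, a WT threshold of 1 gave 199 and of 2 gave 23, a TKO threshold of 1 gave 104, and no bound on TKO mock gave 169. Asking for detection on both TKO arrays, or on both TKO and both WT arrays, choices made after seeing the data, left the same 8. A floor of 8 gave 41, but only 25 of them were among the 53. Found on all 7 scales were 6 probes of 5 genes: 1 of Ifna6, 1 of Ifna9, both Ifi202b member probes, Trex1 and Noc4l. The Ifna6, Ifna9 and Ifi202b probes among them were detected on neither TKO array, so their TKO differences were not measured. Trex1 is the targeted gene. Being found on all 7 scales holds for the probes rather than the genes. On the reported scale, other probes of Ifna6 (4.12 and 0.90), Trex1 (0.66) and Noc4l (0.51) had TKO differences above 0.5. The other Noc4l probe also had a WT difference of only 1.05. The median WT difference was 2.64 with a floor of 8, 0.49 with a floor of 50, and 0.96 without background subtraction and in the value table. The median TKO ISD minus WT ISD difference was −0.49 with a floor of 50, −1.23 with neqc, −0.70 without subtraction and in the value table, and −1.13 over the 8 members detected on both TKO arrays. The median TKO difference was 0.41 with a floor of 8, 0.39 with the 5th percentile, 0.48 with neqc and 0.30 without subtraction. No median changed sign where it was 0.5 or more in size. The median TKO difference of all probes was −0.29 on the reported scale and −0.06 with neqc, under which 48 of the 53 members were above 0 in TKO, 5 were not, and 27 stayed under 0.5. A floor above most members' signal removes their differences by construction. No paired analysis was possible because each group has 1 array.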
